A study of Mus musculus with 3 samples.

Results

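The cells described here are hippocampal myeloid cells of mice that carried transcripts of at least 3 of the 5 genes Emp3, Tcim, Fxyd5, Tnfsf13b and Gpr65. They numbered 195 among the 19791 cells that passed the cell filter, and came from 3 sequencing runs with 97, 37 and 61 cells. To pass, a cell needed 1000 or more unique molecular identifiers (UMIs, each counting 1 captured RNA molecule) from no fewer than 500 genes, with mitochondrial UMIs not above 10%. Cells were left out when their summed MHC class II UMIs (H2-Aa, H2-Ab1, H2-Eb1) reached 20, when at least 3 of the border macrophage genes Mrc1, Pf4, F13a1, Cbr2, Lyve1 and Cd163 were detected, or when at least 2 of the lymphocyte genes Cd3e, Cd3d, Nkg7 and Gzma were. They were compared, run by run, with the 13530 cells that passed the same exclusions and carried none of the 5 genes, called marker-free cells below. Cells with 1 or 2 of the 5 genes belong to neither population. The 5 genes had led a cluster in an earlier analysis of these same cells, so the values of those genes describe the choice of cells, and differences of other genes from marker-free cells are not independent evidence for a separate population.

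All animals shared the genotype Cx3cr1CreERT2/+ with Rosa26tdTomato/+ and NestinTK-eGFP/+, and all received tamoxifen at 100 mg/kg on 4 days, so there was no untreated or control group. Cx3cr1, a receptor gene of microglia and other macrophages, drives the Cre recombinase, and tdTomato marks cells in which the recombinase has acted. Cells came from both hippocampi of perfused brains, were freed of myelin magnetically, sorted as viable tdTomato+ cells and profiled in 10x Genomics libraries. The series names 12 animals, 6 male and 6 female, without assigning them to runs, so p-values below measure only the spread between runs, which may be technical. In the main test of genes that spread was estimated over genes together, not for each gene alone. Ages were not given in the sources used here.

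Microglia are the resident macrophages of the brain parenchyma, and in the resting adult brain they express a characteristic set of genes that includes the purinergic receptor P2ry12 and the surface protein Tmem119. When microglia leave that state, for example around plaques, in demyelination or during development, they lower these genes and raise genes of lipid handling, lysosomes and antigen presentation. Monocytes that enter the brain from blood lack the resting microglial genes and carry Ly6c2, Ccr2 and Plac8. Of the 5 selecting genes, Emp3 encodes a small membrane protein of the PMP22 family and Fxyd5 (dysadherin) a regulator of the Na,K-ATPase that also affects cell adhesion. Tnfsf13b encodes BAFF, a cytokine that sustains B cells and is made by myeloid cells, Gpr65 a receptor that senses extracellular acid, and Tcim a small regulator linked to Wnt signalling.

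In the GENCODE M21 annotation of GRCm38, to which 31011 of the 31053 gene IDs matched, Emp3 lies at chr7:45918023-45921404 on the minus strand and Fxyd5 on the same chromosome at chr7:31032722-31042481, also minus. Tnfsf13b lies at chr8:10006467-10039072 on the plus strand, Tcim at chr8:24437180-24438984 on the minus strand, and Gpr65 at chr12:98268635-98276644 on the plus strand. All 5 are protein-coding. Start regions of 300 bases (250 before and 50 after the start, RefSeq, GRCm38.p6) are shown for Emp3 and Fxyd5, the pair found together in most selected cells (123 of 195), and for Klf2, a transcription factor gene outside the selecting set that differed widely (below). Capitals mark CACCC or its reverse complement GGGTG, the core that Krüppel-like factors bind, and GAGGAAG or CTTCCTC, a core bound by the myeloid factor PU.1. The Emp3 region is chr7:45921377-45921676, the Fxyd5 region chr7:31042282-31042581 and the Klf2 region chr8:72318812-72319111.
Emp3: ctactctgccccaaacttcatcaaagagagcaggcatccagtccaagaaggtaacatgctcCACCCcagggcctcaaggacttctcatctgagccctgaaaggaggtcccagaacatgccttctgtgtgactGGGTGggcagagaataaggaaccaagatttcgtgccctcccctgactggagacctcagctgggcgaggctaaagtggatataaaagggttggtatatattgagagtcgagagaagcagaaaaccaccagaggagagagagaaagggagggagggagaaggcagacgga
Fxyd5: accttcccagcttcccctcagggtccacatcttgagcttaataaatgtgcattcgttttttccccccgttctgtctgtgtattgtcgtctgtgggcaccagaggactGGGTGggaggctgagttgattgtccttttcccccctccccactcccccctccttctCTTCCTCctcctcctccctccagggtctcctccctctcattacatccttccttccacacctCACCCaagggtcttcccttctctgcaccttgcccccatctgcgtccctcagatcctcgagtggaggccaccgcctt
Klf2: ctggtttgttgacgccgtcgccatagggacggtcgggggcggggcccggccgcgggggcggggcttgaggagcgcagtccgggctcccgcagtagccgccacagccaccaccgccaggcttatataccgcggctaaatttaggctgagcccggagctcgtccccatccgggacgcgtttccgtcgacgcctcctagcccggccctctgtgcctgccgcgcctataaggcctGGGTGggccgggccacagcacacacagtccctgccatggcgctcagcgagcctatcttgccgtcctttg
The CACCC core occurred 2 times in the Emp3 region, 2 times in the Fxyd5 region and 1 time in that of Klf2. A second listed start region of Emp3, not shown, held it 4 times. The core occurs in 57.5% of all 32851 start regions of this length. The longer PU.1-type core occurred 1 time, in the Fxyd5 region, and 1 time in the Gpr65 region, against 13.6% of all start regions. Neither core was found in the 2 listed start regions of Tnfsf13b. A match of these letters is a description of the sequence only.

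Run 1 was the deepest and run 2 the shallowest per cell. Selected cells had medians of 5301, 4128 and 4181 UMIs in runs 1, 2 and 3, against 4353, 3376 and 3603.5 in marker-free cells. Their median mitochondrial share was also higher, at 3.41%, 2.51% and 3.12% against 2.55%, 2.06% and 2.53%, and the matching below did not use it. Selection by detected genes favours deep cells, so the all-gene comparison was repeated with the 5 marker-free cells nearest in UMIs to each selected cell. These are called depth-matched cells, and they also served for shares of cells carrying given genes. The summed marker lists, the stepwise comparison, the neighbour graph and the tests between sex classes below were not repeated with them. Between 7 and 10 barcodes were shared by any 2 runs and none of these belonged to a selected cell. Xist and Y-linked UMIs in the same cell, a sign of mixed cells in animals of both sexes, occurred in 7.18% of selected, 7.49% of depth-matched and 2.49% of all 19549 cells that passed the filter and exclusions.

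In run 1, 1.39% of filtered cells were selected, with a 95% exact binomial (Clopper-Pearson) interval from 1.13 to 1.69. The share was 0.551% in run 2 (0.388–0.758) and 1.00% in run 3 (0.769–1.29), a mean of 0.980% ± 0.419 (SD, n = 3 runs). These intervals cover counting error only. Run 2 had the lowest share, and its interval did not reach those of the other runs. Of the 195 cells, 159 carried 3 of the genes, 34 carried 4 and 2 carried all 5. Just outside the rule stood 927 cells with 2 of the genes, so the share rests on where the line is drawn. It was 6.38%, 4.78% and 5.84% with at least 2 genes required, and 0.329%, 0.0893% and 0.115% with at least 4. Among cells thinned to 2000 UMIs it was 0.319%, 0.126% and 0.305%, with run 2 again lowest. The exclusions removed 79 of the 274 cells with at least 3 of the genes, 62 of them through MHC class II, 32 through border macrophage genes and 3 through lymphocyte genes. Among the selected cells, 160 had no MHC class II UMI and 1 had between 10 and 19, while 2 cells just outside had 20 to 29.

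Emp3 was found in 169 selected cells, Fxyd5 in 143, Tnfsf13b in 134, Gpr65 in 103 and Tcim in 74, and the commonest combination was Emp3 with Fxyd5 and Tnfsf13b (46 cells). The summed level of Emp3 was 335, 396 and 278 CPM in runs 1, 2 and 3, where CPM scales the summed UMIs of a population to a fixed library total. Fxyd5 reached 195, 341 and 197 CPM and Tnfsf13b 148, 143 and 200 CPM. Gpr65 stood at 130, 104 and 145 CPM and Tcim at 70.7, 82.5 and 126 CPM. All 5 were therefore present in every run, at 1 to a few UMIs per cell. The highest single-cell count was 22 UMIs for Emp3.

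Detection of the 5 genes rose together across cells once depth was made equal. Among cells thinned to 2000 UMIs, pooled over runs, Emp3 was detected in 9.47% of cells with none of the other 4 genes, 14.2% with 1 and 31.3% with 2. Fxyd5 went from 1.64% to 3.96% and 11.9%, Tnfsf13b from 4.90% to 6.08% and 13%, Gpr65 from 1.87% to 3.36% and 8.24%, and Tcim from 1.20% to 1.40% and 4.28%. Averaged over the genes, detection with 2 others was 4.24 times that with none, and 6.03, 2.65 and 3.80 times in runs 1, 2 and 3. With 3 others, in 8 to 31 cells per gene, only Gpr65 was higher again (8.70%), and Emp3, Fxyd5, Tnfsf13b and Tcim stood at 25%, 6.67%, 11.8% and 3.23%. The groups with 2 others held only 115 to 304 cells, thinning left out 91, 375 and 166 shallower cells in runs 1, 2 and 3, and no test was made because the genes were chosen together.

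**Figure D1:**
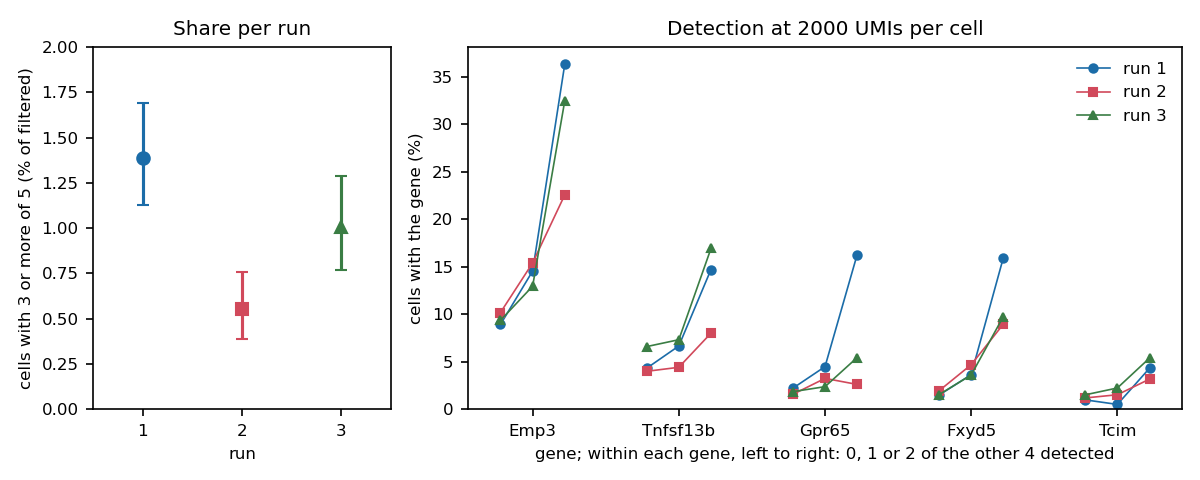
Left, percentage of filtered cells with at least 3 of the 5 genes in each run, with 95% exact binomial intervals. Right, percentage of cells thinned to 2000 UMIs in which each gene was detected, for 0, 1 or 2 of the other 4 genes, 1 symbol per run; in the pooled cells Emp3 rises from 9.47% to 31.3%, while Gpr65 in run 2 does not rise at the last step and Tcim in run 1 falls at the first, from 0.972% to 0.492%.

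The selected cells carried the defining genes of microglia. P2ry12, a nucleotide receptor of microglia, was detected in 190 of 195 cells, Tmem119 in 188 and the transcription factor Sall1 in 129. Depth-matched cells had P2ry12 in 99.6%, Tmem119 in 99.4% and Sall1 in 78.2%. At least 3 of P2ry12, Tmem119, Siglech, Gpr34 and Sall1 were present in 192 selected cells (98.5%) and in 99.6% of marker-free cells. Of the other 3 cells, 1 carried 2 of these genes, and 2 carried 1 of them together with at least 3 of the 5 monocyte genes Ly6c2, Ccr2, Plac8, Chil3 and Ms4a4c, which no marker-free cell did. The run 2 cell had 12758 UMIs, with 64 of Plac8, 47 of Chil3, 32 of Ly6c2 and 627 of Lyz2, and no P2ry12 or Tmem119. The run 3 cell had 4181 UMIs, with 15 of Plac8 and 62 of Lyz2, and likewise no P2ry12 or Tmem119. Those 2 cells with monocyte markers were found after the data had been seen, and the run values they raised most are also given without them.

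Marker lists of other cell types, monocytes apart, were low or not far above their level in marker-free cells. Summed over 9 genes, the monocyte list stood at 48.7, 1039 and 110 CPM in selected cells of runs 1, 2 and 3 and at 5.98 to 9.02 CPM in marker-free cells. Without the 2 monocyte-marker cells it stood at 48.7, 17.7 and 32.8 CPM, and 4 of its 9 genes were at 0. Of the neutrophil list only S100a8 had any UMI. The lymphocyte list outside the rule reached 6.46 to 12.6 CPM, against 8.50 to 13.4 CPM in marker-free cells, with Trbc1, Trbc2 and Lck at 0. Among border macrophage genes outside the rule, Ms4a7, Clec10a, Cd209f and Clec4n were at 0, and the sum, carried by genes that microglia also express such as Maf and Stab1, was 544 to 940 CPM against 908 to 1399 CPM. Of 6 of these genes tested, 1 was higher and 2 were lower (edgeR). Mrc1, a border macrophage gene of the rule, was at 6.28, 5.50 and 48.5 CPM against 3.75, 2.33 and 2.73 CPM, without overlap. Its run 2 level was 0 without the monocyte-marker cell. Pf4, Cbr2 and F13a1 overlapped with marker-free cells, and Lyve1 and Cd163 had no UMI in selected cells. The astrocyte list summed to 142 to 243 CPM in selected and 239 to 387 CPM in marker-free cells, and the neuron list to at most 1.57 CPM. Of the 6 dendritic cell genes, Flt3, Xcr1, Clec9a and Cd209a were at 0. That list summed to 37.7, 77.0 and 71.1 CPM against 49.7, 55.1 and 56.2 CPM, higher in runs 2 and 3. The B cell list summed to 198 to 313 CPM against 311 to 401 CPM. The oligodendrocyte list was at 126, 143 and 87.2 CPM against 102, 125 and 96.4 CPM, higher in runs 1 and 2. The part of these RNAs in the gene differences below was not tested.

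Across the transcriptome, 963 of 11523 genes outside the selection rule differed from marker-free cells at an adjusted p under 0.05 (8.36%), 595 of them higher (5.16%) and 368 lower (3.19%), in edgeR's quasi-likelihood test on summed counts with the run as a block. Their log2 differences were mostly small: 340 of the 963 reached 1 in either direction, and the median over all genes tested was -0.07. Only 2 residual degrees of freedom support the test, and genes shared a single estimate of spread, which makes very small p-values possible. Without the run as a block the count was 192 higher and 28 lower, and DESeq2 called 457 higher and 82 lower. Without the 2 monocyte-marker cells 554 were higher (4.82%) and 327 lower (2.85%), 7.67% of 11491 genes in all. Against depth-matched cells it was 426 higher (5.26%) and 141 lower (1.74%) of 8101 genes (7.0%), and without run 1 it was 303 and 143. Values of the selected and marker-free cells did not overlap between runs for 20.3% of all genes tested.

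Among the widely carried genes that were higher was Klf2, a zinc-finger transcription factor that governs quiescence and trafficking in lymphocytes and dampens inflammatory activation in myeloid cells. Klf2 was at 344, 330 and 446 CPM in selected cells and at 13.1, 10.1 and 82.9 CPM in marker-free cells of runs 1, 2 and 3. The 2 ranges did not overlap, and the marker-free level was highest in run 3, the run in which the summed immediate early genes stood at 4397 CPM in marker-free cells against 874 and 1077 CPM in runs 1 and 2. Its log2 difference was 3.90 ± 0.14 (SE; edgeR adjusted p = 1.33e-175 with the run as a block and 0.0111 without). That SE rests on the spread shared by all genes, and the Klf2 differences of the runs lay further apart than it. It was detected in 96 selected cells (49.2%) and in 7.9% of depth-matched cells. No single cell held more than 6.71% of its UMIs, and the difference was 4.22 when cells carrying the other programs described below were left out. Klf6 was also higher, by 0.73 ± 0.13 (adjusted p = 1.04e-06, edgeR; 0.102 without the block), and 3 of the 8 KLF and lymphocyte-egress genes tested were higher and none lower. The third was Itgb7, with UMIs in 3 cells, 1 of which held 75% of them.

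Klf2 belonged to a set of 82 genes. Each was carried by at least 20% of selected cells, was higher in every run and was called in each of 3 edgeR fits. The fits were against all marker-free cells, against depth-matched cells, and with cells of other programs left out. Genes with names starting in Rpl, Rps or mt-, and unnamed Gm genes, were left out of the set. That selection was made after the values had been seen and gets no test of its own. Cd52, a small glycosylphosphatidylinositol-anchored surface glycoprotein of leukocytes, was at 829, 907 and 1166 CPM against 215, 258 and 239 CPM, and was found in 91.3% of selected and 63.0% of depth-matched cells. It was 4.17-fold higher (adjusted p = 2.69e-117, edgeR; 2.86e-05 without the block). H2-D1, an MHC class I heavy chain, was at 1029, 995 and 1121 CPM against 388, 405 and 415 CPM, 2.67-fold higher (adjusted p = 4.16e-60, edgeR). Capg, an actin-capping protein of macrophages, was at 148, 192 and 162 CPM against 26.9, 35.7 and 27.5 CPM, and was found in 42.1% against 14.5% of cells. For each of these genes the ranges of the 2 populations did not overlap.

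Others of the 82 had roles in iron storage, cytokine reception and myeloid signalling. Fth1, the ferritin heavy chain, was at 4543, 4344 and 4617 CPM against 2216, 2342 and 2072 CPM, and the light chain Ftl1 was 1.93-fold higher. Tspo, a mitochondrial outer-membrane protein used as a brain-imaging target, was at 237, 275 and 155 CPM against 70.5, 82.8 and 77.9 CPM. Csf2ra, the alpha chain of the GM-CSF receptor, was 1.98-fold higher and was found in 48.2% of selected and 28.7% of depth-matched cells. The adaptor Lat2 was 2.07-fold higher and found in 70.3% against 44.1%. The surface receptors Slamf9 (2.17-fold), Cd48 (1.72-fold) and Cd34 (1.86-fold; edgeR adjusted p = 0.0597 without the block) were also higher. Of 88 ribosomal protein genes tested, 74 were higher and none lower, with a median log2 difference of 0.47.

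Genes of resting microglia were lower. Of 17 homeostatic genes, 15 were lower and none higher, with a median log2 difference of -0.52 beside -0.07 over all genes tested. The median was -0.54, -0.58 and -0.51 in runs 1, 2 and 3, and -0.41 with 14 genes lower against depth-matched cells. Without the 2 monocyte-marker cells 13 were lower, without cells of other programs 12, and without the run as a block 5. P2ry12, which senses nucleotides and directs process movement, was at 1852, 2936 and 2097 CPM against 3920, 5144 and 3686 CPM. It was lower in every run, by 0.88 ± 0.07 on the log2 scale (adjusted p = 5.27e-32, edgeR; 0.0473 without the block). Fcrls, an Fc receptor-like gene of microglia, was at 1225, 1353 and 1154 CPM against 2388, 2830 and 2147 CPM, and its log2 difference was -0.94 ± 0.08 (adjusted p = 7.57e-32, edgeR). The selected cells lay below all marker-free values for both genes.

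Among the remaining homeostatic genes, P2ry13 had a log2 difference of -0.90, the fructose transporter Slc2a5 of -0.87 and Gpr34 of -0.68, each also called without the block. Mertk (-0.60), Tmem119 (-0.55), Siglech (-0.53), Selplg (-0.52), Sall1 (-0.42) and Cx3cr1 (-0.40) passed the test with the block and not without it, and the call of Sall1 was also lost without run 1, in DESeq2 and without cells of other programs. For Tmem119, run values were 1223, 2002 and 1496 CPM against 1945, 2896 and 2136 CPM, so the 2 populations overlapped between runs while each run was lower. Csf1r and Olfml3 did not pass the test.

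Genes of the disease-associated microglial state, seen around plaques and in development, were higher: 14 of 18 tested, none lower, with a median log2 difference of 1.48. The median was 1.47, 0.89 and 1.05 in runs 1, 2 and 3. Apoe, the main lipid carrier of the brain, was at 3705, 1958 and 4120 CPM against 568, 763 and 608 CPM, 5.14-fold higher (adjusted p = 5.02e-198, edgeR; 0.00012 without the block). It was found in 73.8% of selected and 57.1% of depth-matched cells. Lpl, lipoprotein lipase, was at 325, 143 and 494 CPM against 22, 25.7 and 23 CPM and was found in 35.4% against 8.82% of cells. The receptor tyrosine kinase Axl, which mediates uptake of dying cells, was at 59.7, 22 and 51.7 CPM against 2.25, 2.15 and 2.47 CPM. None of these ranges overlapped.

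The tetraspanin Cd63 was 2.17-fold higher and found in 74.4% of selected and 71.1% of depth-matched cells. Cd9 was 1.63-fold higher and found in 97.9% against 97.6%. Cst7 was at 29.8, 22 and 58.2 CPM against 5.40, 7.36 and 4.87 CPM. Spp1, osteopontin, was at 258, 0 and 372 CPM, in 11 cells of which 1 held 40.5% of the UMIs, so the runs overlapped with marker-free cells. Trem2, Ctsd, Cd68 and Fabp5 did not pass the test. Without cells of other programs, among them those chosen by 7 of these genes, 10 of 15 were higher with a median of 0.45.

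**Figure D2:**
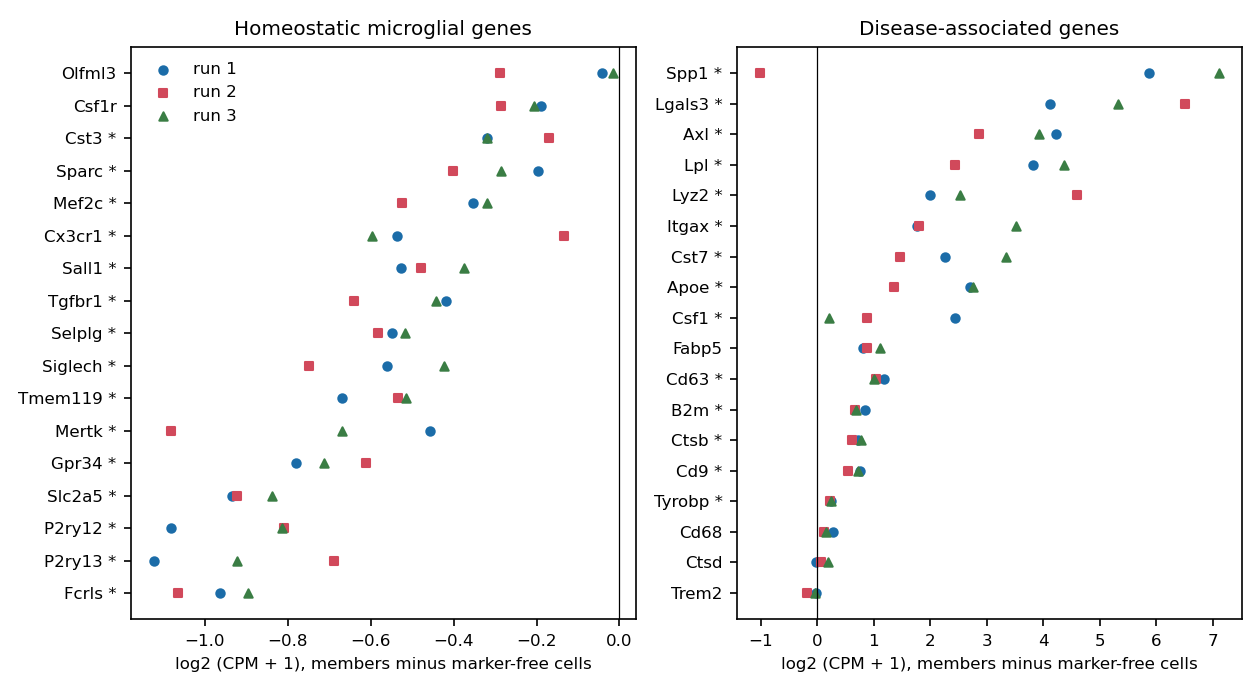
Difference of log2(CPM + 1) between selected and marker-free cells for each homeostatic gene (left) and each disease-associated gene (right), 1 symbol per run; an asterisk marks an adjusted p under 0.05 in edgeR. All homeostatic points lie below 0, and most disease-associated points lie above 0, with Spp1 in run 2 as the lowest.

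Actin-binding, annexin and S100 genes, which take part in migration and membrane repair, were higher for 12 of 13 tested, with a median log2 difference of 2.51, and a single cell carried much of this. Without the 2 monocyte-marker cells 9 of 12 were higher, with a median of 1.72. Vim, an intermediate filament gene, was at 34.6, 396 and 38.8 CPM against 2.25, 2.21 and 2.08 CPM, and 1 cell held 64.2% of its UMIs. Without the 2 cells Vim was at 34.6, 23.7 and 36 CPM. Crip1 had 57.3% of its UMIs in 1 cell and Anxa2 63.4%; both stayed called without the 2 cells, where their run 2 levels were 35.5 CPM for Crip1 and 41.4 CPM for Anxa2. S100a6 had 95.9% of its UMIs in 1 cell and was not called in DESeq2, and S100a4 lost its call without the 2 cells (adjusted p = 0.55, edgeR). Less concentrated were Anxa5, a phosphatidylserine-binding annexin, at 83.2, 110 and 64.6 CPM (53.2 CPM in run 2 without the monocyte-marker cell) against 17.9, 19.4 and 13.6 CPM, Lsp1 (3.14-fold) and Tmsb10 (2.94-fold). The call of Anxa5 was lost without cells of other programs (edgeR adjusted p = 0.077). Run 2 was the outer value for Vim, Crip1 and Anxa2.

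Monocyte genes showed the same concentration. Of 7 tested 6 were higher, and without the 2 cells 3 of 5. Plac8 was at 20.4, 357 and 58.2 CPM against 1.88, 0.658 and 1.88 CPM, with 66.7% of its UMIs in 1 cell, and it stayed called without both (adjusted p = 0.000214, edgeR) at 20.4, 5.91 and 9.83 CPM. Without all cells of other programs its log2 difference fell from 5.79 to 0.42 and the call was lost (edgeR adjusted p = 0.985), and 0 of 3 monocyte genes were higher. Ccr2 did not stay called without the 2 monocyte-marker cells (edgeR adjusted p = 0.838, with its log2 difference turning from 2.22 to -0.75). Lyz2, lysozyme of myeloid cells, was at 553, 4091 and 698 CPM against 138, 168 and 120 CPM, and at 553, 692 and 504 CPM without the 2 cells. It had 47.8% of its UMIs in the run 2 monocyte-marker cell and was yet found in 79.0% of selected and 38.3% of depth-matched cells. The 2 populations did not overlap between runs for Lyz2.

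Among the genes with the largest changes were several carried by a small share of the cells. Cybb, the catalytic subunit of the phagocyte NADPH oxidase, was at 44, 82.5 and 87.2 CPM against 0.516, 0.658 and 0.844 CPM (log2 difference 6.68 ± 0.59, adjusted p = 6.43e-27, edgeR). Its UMIs came from 18 selected cells (9.23%) and from no depth-matched cell. Without the 2 monocyte-marker cells it was at 44, 5.91 and 55.7 CPM. Its call was lost without cells of other programs (edgeR adjusted p = 0.589). Cyp4f18, a neutrophil and myeloid fatty-acid hydroxylase, was at 14.1, 66.0 and 16.2 CPM against 0.329, 0.18 and 0.0649 CPM, in 15 cells, and at 14.1, 35.5 and 3.28 CPM without the 2 cells. Lgals3 (galectin-3) was at 53.4, 302 and 67.9 CPM against 2.11, 2.33 and 0.714 CPM, in 20 cells, and at 53.4, 124 and 59 CPM without them. Samd9l, an interferon-induced restriction gene, was at 25.1, 33.0 and 35.5 CPM against 1.55, 1.44 and 1.56 CPM in 24 cells, of which none held more than 9.09% of the UMIs. Wfdc17 was found in 8 cells, with 48% of its UMIs in 1, and the interferon-induced membrane gene Ifitm2 in 11; both calls were lost without cells of other programs (edgeR adjusted p = 0.167 and 0.586). Wfdc17 was at 17.3, 71.5 and 3.23 CPM and, without the 2 monocyte-marker cells, at 17.3, 5.91 and 3.28 CPM. Ifitm2 was at 15.7, 110 and 58.2 CPM and, without them, at 15.7, 5.91 and 19.7 CPM. For these genes no run value of the 2 populations overlapped.

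Interferon-stimulated genes were higher for 11 of 14 tested and lower for none, with a median log2 difference of 2.68, and run 1 led this result. Run medians were 3.41, 0.79 and 0.61 in the order of the runs, and without run 1 5 of 14 were higher with a median of 0.60. Ifitm3, which blocks viral entry, was at 168, 506 and 191 CPM against 10.4, 12.0 and 14 CPM, and at 168, 59.1 and 131 CPM without the 2 monocyte-marker cells, 1 of which held 31.8% of its UMIs. Ifi27l2a was at 430, 258 and 116 CPM against 15.8, 18.1 and 24.2 CPM and was found in 30.8% of selected against 6.97% of depth-matched cells. Its run 2 level was 136 CPM without the monocyte-marker cell of that run. Both were higher in every run without overlap. Ifi204, a cytosolic DNA sensor, was higher in every run (97.4, 44 and 16.2 CPM against 3.38, 2.75 and 4.02 CPM, with 23.7 CPM in run 2 without that cell). Isg15 was at 127, 11 and 6.46 CPM against 11, 6.64 and 5.71 CPM, which puts the excess in run 1, and its call was lost without that run (edgeR adjusted p = 0.941). At least 5 of the 14 genes were present in 16.5%, 5.41% and 4.92% of selected cells in runs 1, 2 and 3, against 1.65%, 2.70% and 1.64% of depth-matched cells.

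Cell cycle genes were higher for 6 of 9 tested with a median log2 difference of 2.72. Run medians were 3.35, 0.27 and 2.16 in the order of the runs, and without run 1 2 of 8 were higher with a median of 2.10. Mki67, a marker of cycling cells, was at 137, 5.50 and 22.6 CPM against 2.11, 0.359 and 1.56 CPM. Its UMIs lay in 9 cells, and 9 cells held those of the mitotic gene Birc5 (53.4, 5.50 and 12.9 CPM against 1.36, 1.02 and 0.779 CPM). Without run 1 their log2 differences were 3.90 and 3.5, from 5.12 and 4.47, and both calls were lost (edgeR adjusted p = 0.105 and 0.325). The single run 2 UMI of Mki67 lay in a monocyte-marker cell. At least 3 of the 10 listed cycle genes were present in 6.15% of selected and 1.74% of depth-matched cells, and with cells of other programs left out no cycle gene was called. At least 2 of 7 disease-associated genes (Cst7, Lpl, Spp1, Itgax, Axl, Csf1, Lgals3) were present in 27.2% (21.1 to 34.0) of selected and 3.38% (2.34 to 4.72) of depth-matched cells. In runs 1, 2 and 3 these shares were 34.0%, 18.9% and 21.3% against 3.92%, 4.32% and 1.97%. None of the monocyte, cycle, interferon and disease-associated programs was present in 65.1% of selected and 93.3% of depth-matched cells. The numbers of genes required were set after seeing the data. With the cells of these 4 programs left out, 206 genes were higher (1.84%) and 112 lower (1.0%) of 11186 (2.84%).

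**Figure D3:**
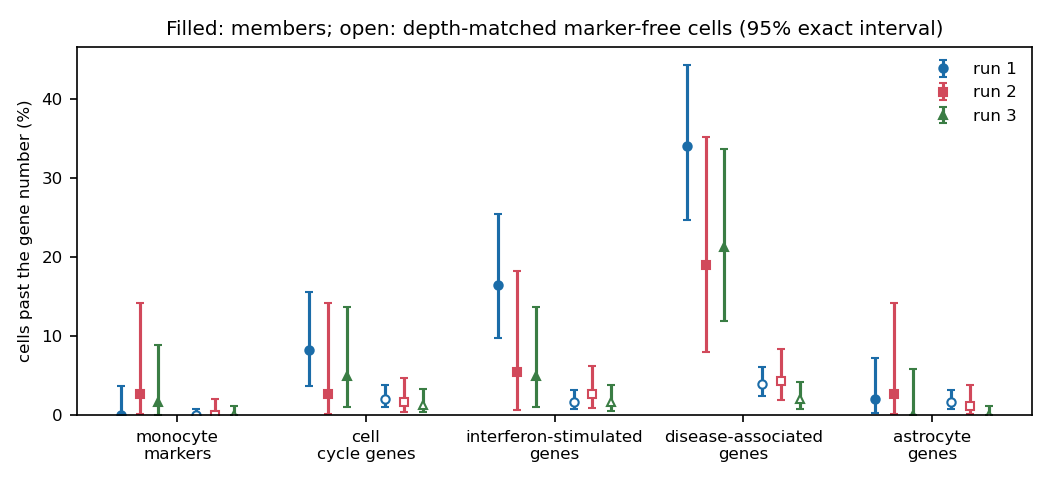
Percentage of selected cells (filled) and depth-matched marker-free cells (open) that carry at least 3 of 5 monocyte, 3 of 10 cell cycle, 5 of 14 interferon-stimulated, 2 of 7 disease-associated or 3 of 8 astrocyte genes, per run, with 95% exact binomial intervals. The disease-associated share of selected cells, between 18.9% and 34.0%, lies above the depth-matched share in each run.

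Lysosomal genes were modestly higher for 8 of 10 tested, with a median log2 difference of 0.36, and DESeq2 also called 8, while these calls were lost without the run as a block. Ctss, a cathepsin of antigen-presenting cells, was at 6469, 8396 and 7238 CPM against 4712, 5936 and 5151 CPM (adjusted p = 1.38e-12, edgeR; 0.102 without the block), and Npc2, a lysosomal cholesterol carrier, was 1.54-fold higher (0.0561 without the block). Of 8 MHC class I genes 4 were higher: H2-D1, H2-K1 (1.98-fold), H2-Q7 and Psmb8. The call of Psmb8 was lost without run 1, without the block and in DESeq2, and the calls of H2-Q7 and Psmb8 were lost without cells of other programs. Of 3 MHC class II partners outside the rule 2 were higher. Cd74, the invariant chain, was at 140, 38.5 and 417 CPM against 18.9, 25.1 and 22.3 CPM, with 31.1% of its UMIs in 1 cell, and DESeq2 did not call it (adjusted p = 0.0528). The exclusion of cells with many MHC class II UMIs bears on these genes.

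Chemokine genes were uneven between runs. Of 13 tested 7 were higher and none lower, and 3 were higher without the block. Ccl6 was at 462, 341 and 414 CPM against 184, 206 and 184 CPM, in 59.0% of selected and 53.1% of depth-matched cells. Ccl3 was at 102, 5.50 and 107 CPM against 22.8, 26.2 and 55.3 CPM and Ccl4 at 160, 5.50 and 38.8 CPM against 45.8, 34.9 and 63.6 CPM, so both overlapped with marker-free cells. A single cell held 75.7% of the Ccl4 UMIs and 50.5% of those of Ccl3, and neither call held against depth-matched cells (adjusted p = 0.613 and 0.151, edgeR) or without run 1. Of 11 immediate early genes 4 were higher in edgeR and 1 in DESeq2. Egr1 was at 1.57, 0 and 430 CPM against 3.38, 2.15 and 273 CPM, a difference between runs in both populations, and its call was lost without the block (edgeR adjusted p = 0.937) and without run 3. None of 7 NF-kappaB feedback genes passed in edgeR or DESeq2 (median -0.11), with 1 at an unadjusted p under 0.05. None of 7 TGF-beta pathway genes did either (median -0.13), with 0 at that unadjusted p. Of 4 heat shock genes tested, 2 were higher.

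Relatives of 3 of the selecting genes were taken family by family. Among 10 TNF superfamily ligands and receptors tested, 4 were higher and 1 lower, and without the block only the lower one was called. That gene was Tnfrsf17, which encodes the BAFF-family receptor BCMA: it was at 31.4, 27.5 and 25.9 CPM against 66.3, 58.5 and 60.0 CPM, a log2 difference of -1.07 ± 0.25 (adjusted p = 0.000356, edgeR; 0.0327 without the block). The ranges did not overlap, and the call was lost without run 1, without cells of other programs (edgeR adjusted p = 0.085) and in DESeq2 (adjusted p = 0.0771). The calls of the higher members were lost without run 1. Tnfrsf11a, the receptor of RANK ligand, was at 105, 77.0 and 100 CPM against 62.6, 37.7 and 74.9 CPM (adjusted p = 0.000855, edgeR; 0.185 without the block). Tnfsf12 was 1.57-fold higher, and DESeq2 did not call it (adjusted p = 0.0606). Neither Emp2 nor Pmp22 was called by edgeR or DESeq2, with 0 at an unadjusted p under 0.05, and Emp1, found in 2 cells, was too low to test. Of 3 tested relatives of Gpr65, Lpar6 was lower, with a log2 difference of -0.48, and its call was lost without run 1, without the block, against depth-matched cells, in DESeq2 and without cells of other programs.

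Among the genes with the largest decreases, Enpp2 had no UMI in selected cells and 1494 UMIs in marker-free cells. It was detected in only 0.606% of marker-free and 0.41% of depth-matched cells. A limit of 3 counts over the selected cells would put it at least 10.5-fold lower. That limit takes UMIs as spread evenly over cells, so it is no firm bound here. The call was lost in DESeq2 (adjusted p = 0.195) and without the block, and Enpp2 was not tested against depth-matched cells. Ttr, transthyretin of the choroid plexus, was at 7.85, 5.50 and 0 CPM against 589, 1127 and 152 CPM. Of the Ttr UMIs of marker-free cells, 96.4% lay in 49 cells with at least 2 of the choroid genes Enpp2, Folr1 and Igfbp2, and no selected cell had 2. Without those 49 cells the log2 difference of Ttr was -2.0 (edgeR adjusted p = 0.00114), from -6.68 with them. Ddit4, a stress-induced inhibitor of mTOR signalling, was at 70.7, 16.5 and 38.8 CPM against 269, 58.6 and 76.1 CPM. It was lower in each run, although runs overlapped, and was found in 20.5% of selected and 45.3% of depth-matched cells (adjusted p = 2.66e-16, edgeR; 0.356 without the block).

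Eva1a, a regulator of autophagy, was at 15.7, 22 and 12.9 CPM against 49.9, 50.6 and 46.3 CPM. The histamine-degrading enzyme Hnmt was at 23.6, 0 and 12.9 CPM against 52.0, 45.9 and 56.6 CPM. Both were below every marker-free value. Tmem44, Jam3, Pecam1 and Tmem204 were lower by 1.57, 1.61, 1.51 and 1.48 on the log2 scale, and Tmem52, Trp53i11 and Gpr165 by 2.24, 2.02 and 2.02. The calls of Tmem52, Trp53i11 and Gpr165 were lost without the block (edgeR adjusted p = 0.0804, 0.053 and 0.0756), and that of Gpr165 also against depth-matched cells (0.0626). Without run 1, Jam3, Pecam1, Tmem204, Trp53i11 and Gpr165 were no longer called. In DESeq2 the adjusted p was 0.056 for Tmem44, 0.129 for Jam3, 0.108 for Pecam1, 0.14 for Tmem204, 0.148 for Trp53i11 and 0.126 for Gpr165, none of them called. Without cells of other programs Pecam1, Tmem204 and Trp53i11 lost the call (edgeR adjusted p = 0.145, 0.394 and 0.191). A second set of 66 lower genes, chosen after the values had been seen like the 82 above, included Bank1 (44, 27.5 and 19.4 CPM against 92.5, 91.1 and 82.4 CPM), the sialomucin Cd164 (225, 225 and 249 CPM against 527, 393 and 494 CPM) and Crybb1 (206, 297 and 271 CPM against 489, 611 and 421 CPM).

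Cells with 1 or 2 of the genes stood between the 2 populations. Klf2 was at 41.5, 25.5 and 125 CPM in cells with 1 of the genes and at 128, 74.7 and 255 CPM in cells with 2, in runs 1, 2 and 3. It reached 285, 291 and 469 CPM in cells with 3. P2ry12 was at 3578, 4626 and 3468 CPM with 1 gene, 3007, 3894 and 2863 CPM with 2, and 1865, 3171 and 2186 CPM with 3. Each run therefore showed a step at every added gene up to 3, for both genes. Cd52 stood at 456, 455 and 407 CPM with 2 genes and at 824, 657 and 1238 CPM with 3. Cells with 4 or 5 genes numbered 23, 6 and 7. P2ry12 was lower again there, at 1806, 1925 and 1268 CPM, and Klf2 was at 546, 496 and 234 CPM, so Klf2 in run 3 did not keep the order. The genes shown were chosen after their values had been seen, and median depth also rose with the number of genes, from 3751 UMIs with none to 4595 with 3.

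**Figure D4:**
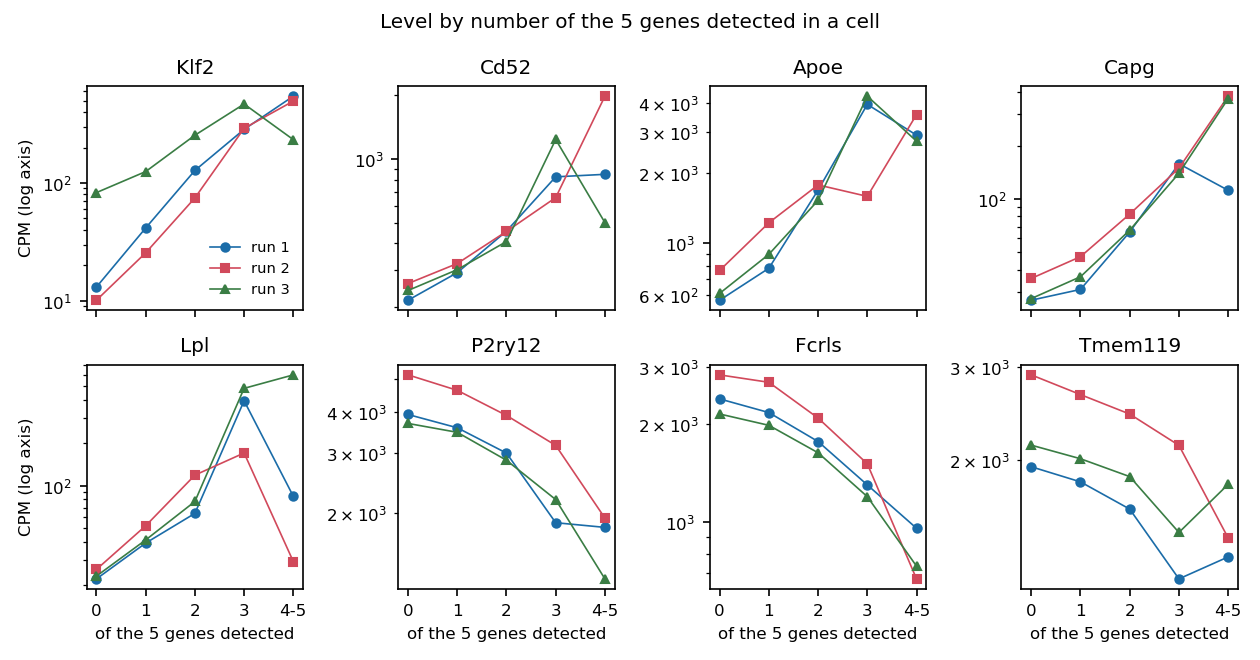
Level of 8 genes outside the selecting set (CPM, log axes) in cells with 0, 1, 2, 3 or 4 to 5 of the 5 genes, 1 line per run. Klf2, Cd52, Apoe, Capg and Lpl rise and P2ry12, Fcrls and Tmem119 fall from 0 to 2 genes in each run, while the last points rest on 6 to 23 cells.

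The selected cells did not form a group of their own. In a neighbour graph built without the genes of the rule, a mean of 8.03% of the 15 nearest neighbours of a selected cell were other selected cells, against 0.350% for marker-free cells. The mean was 10.4%, 6.13% and 5.46% in runs 1, 2 and 3, and 87 selected cells (44.6%) had no such neighbour. Of 11 clusters, 8 held selected cells, which nowhere exceeded 6.67% of a cluster. Most (108, or 55.4%) lay in a large cluster led by Cd63 and ribosomal protein genes, which held 36.9% of marker-free cells. A cluster led by Tjp1, Bank1, Upk1b and Khdrbs3 held 12.8% of selected and 49.2% of marker-free cells. Clusters led by interferon-stimulated genes, by Ccl4 and Ccl2, by Fos and Egr1 and by mitotic genes held 13, 16, 16 and 10 selected cells, and the 16 beside Fos and Egr1 all came from run 3. A cluster led by Ms4a7, Cd209f and Mgl2 held 3 selected cells, 1.54% of selected and 0.133% of marker-free cells. Another, led by Slc1a2, Cpe and Aldoc, held 4, or 2.05% of selected and 2.60% of marker-free cells. Differences in other genes enter the graph, so these positions are a description.

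The selected cells were found in both sexes, read from sex-linked transcripts (at least 2 Xist UMIs and no UMI of 4 Y-linked genes, or at least 1 Y-linked UMI and no Xist). They made up 1.44%, 0.456% and 1.44% of Xist cells and 1.37%, 0.675% and 0.677% of Y-linked cells in runs 1, 2 and 3. The share was higher in Y-linked cells in 1 of 3 runs, and the mean log2 odds ratio was -0.20 ± 0.84 (SD, n = 3; exact two-sided sign-flip permutation p = 0.75, where 0.25 is the smallest possible).

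The selected cells included 32, 9 and 11 Y-linked and 39, 16 and 36 Xist cells in runs 1, 2 and 3, so sums rested on as few as 9 cells. Within the selected cells, 10 of 2807 genes (0.356%) differed between Y-linked and Xist cells in edgeR, 2 higher (0.0713%) and 8 lower (0.285%) in Y-linked cells. None was called without the run as a block, where 60 had an unadjusted p under 0.05, or without run 1, where 42 did. Ccl4 was at 481, 22.2 and 113 CPM in Y-linked cells and 30.8, 0 and 27.4 CPM in Xist cells, and Ccl3 at 279, 0 and 245 CPM against 27.0, 0 and 82.2 CPM. Both were carried by few cells, as given above. Lower in Y-linked cells were Tsix, which overlaps the class-defining Xist and was at 0 in all 3 runs, and Spp1, which was at 202, 0 and 18.8 CPM against 489, 0 and 625 CPM. Ifi27l2a was at 213, 88.6 and 56.4 CPM against 589, 484 and 159 CPM, lower in each run, with the run 2 monocyte-marker cell among the Xist cells. The difference from marker-free cells itself differed between the sex classes for 16 of 10477 genes (0.153%), 2 with a larger value in Y-linked cells (0.0191%) and 14 with a smaller one (0.134%), and for 0 without the run as a block, where 411 had an unadjusted p under 0.05.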

How the data were processed

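The deposited files held UMI counts per gene and cell for 3 runs, made by the authors with Cell Ranger against mm10, with Seurat 4.0 also named, per the submitters' processing notes. Matrix headers gave software versions 3.0.2 (run 1) and 3.1.0 (runs 2 and 3), so run 1 was processed with another version than the other runs. No doublet caller was run, and no cell annotation was used. The members, gene lists and programs were chosen with earlier results of these data known. Counts were summed per run and population (309476 to 636745 UMIs in runs 3 and 1 and 181864 in run 2 for selected cells) and tested in edgeR 4.0.16 (R 4.3.3, limma 3.58.1) with TMM scaling, filterByExpr and a block for the run, and p-values were adjusted over all genes tested (Benjamini-Hochberg). The block stands for the shared library: deviations of same-run sums correlated at 0.250, 0.276 and 0.235 in runs 1, 2 and 3 over 11529 genes. Per-run differences in list medians used log2(CPM + 1). Thinning, matching and the neighbour graph (scanpy 1.11.5) used numpy 2.4.6, scipy 1.17.1 and pandas 2.3.3. DESeq2 1.42.0 served as an alternative. The procedure was tested on simulated data. For selected against marker-free cells it recovered 38% of genes changed by 1 on the log2 scale and 78.1% of those changed by 2. Of its calls 4.24% were false. The simulation held no difference between runs and a single spread for all genes, unlike the data, so it gives no measure of missed genes here. Genes outside the lists were named by size of change: up to 12 per direction with adjusted p under 0.05, a log2 difference of 1 or more, 20 CPM or more where higher, and 1 direction in all runs, without ribosomal, mitochondrial or unnamed genes. The 82 and 66 widely carried genes and the genes of the stepwise comparison were chosen after their values were seen. Some genes are not reported here. The files list 31053 genes, and start regions were found for 4 of the 5 selecting genes.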

Additional observations from a re-analysis of the deposited data

Results flagged for a closer look

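For 16 genes the difference between selected and marker-free cells differed between Y-linked and Xist cells in edgeR's interaction test (adjusted p under 0.05, Benjamini-Hochberg over 10477 genes). Values below are log2 differences of the effect, Y-linked minus Xist. Ifi27l2a had -1.70 and was called with any 1 of the 3 runs left out (adjusted p = 0.000575, 0.000493 and 0.00187, edgeR). Its run 2 level rests in part on the monocyte-marker cell of that run, an Xist cell, and the test was not repeated without that cell. Parp14 had -1.81, lost without run 1 or run 2, and Lgals3bp -1.33, lost without run 1 or run 3. Anxa5 had -1.94, lost without run 2 or run 3. Lyz2 had -1.29, and it was lost without run 2 (edgeR adjusted p = 0.367), the run of the monocyte-marker cell with 627 Lyz2 UMIs. Jun had -1.47 and Egr1 -2.92, and both were lost without run 3, where the immediate early genes were high in both populations. Ccl4 had 3.30 and Ccl3 1.94, both lost without run 1.

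The histone gene Hist1h2ap had -3.96, with 39.5% of its UMIs in 1 cell, and was lost without run 1. For 6 genes Y-linked selected cells held no UMI, so the adjusted p from edgeR is given in place of a fold: Hist1h1b 0.00014, Hist1h2ae 0.0071, Gm4951 0.0108, Pclaf 0.0387, Trim34a 0.0422 and Atad2 0.0422. Hist1h1b UMIs came from 5 selected cells, 1 of which held 68.4%. Atad2 lost its call with any 1 run left out, and Trim34a and Gm4951 without run 1 or run 2. Hist1h2ae lost it without run 1 and Pclaf without run 2. Pclaf and Hist1h1b were not tested without run 1, nor was Hist1h1b without run 3. The part of single cells and of runs in these differences was not tested.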

How the results depend on the processing

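The count of 963 called genes was 119 with at least 4 of the 5 genes required, 39 in cells thinned to 2000 UMIs, 567 against depth-matched cells, 318 without cells of other programs and 539 in DESeq2's Wald test. Treating the sums as unpaired, with no replicate block, gave 220, of which 87.3% were higher against 61.8% with the block. The share of higher calls was also above 70% in DESeq2 (84.8%), in depth-matched (75.1%) and in thinned cells (79.5%), where the median of all genes moved to -0.54. Leaving out runs gave 446 (without run 1) to 914, and 334 to 902 with the monocyte-marker cells also left out; that alternative and those without other programs or choroid-gene cells were chosen after seeing the data. The mean share of 0.980% was 0.178% with at least 4 genes, 5.67% with at least 2 and 0.25% after thinning, and 0.777% to 1.20% with 1 run left out. The 10 genes differing between sex classes were 0 with no replicate block, 18 with no filter on low counts and 0 to 11 with runs left out. The 16 interaction genes were 0 with no replicate block and 9 to 19 with runs left out.

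Of 1715 values of the 88 genes named, 1486 kept direction and call, 210 kept direction and lost the call, and 19 turned direction. The log2 difference of Ccl4 was -0.37 with the stricter cell filter, -1.74 with at least 4 genes, -0.24 in DESeq2, -2.33 without other programs, and -0.98 to 1.45 with runs left out. Egr1 was -0.68 with at least 4 genes and -1.31 to 0.72 with runs left out. Ccr2 was -0.75 without monocyte-marker cells, -0.85 without other programs and -1.17 to 3.19 with runs left out. Without other programs Ccl3 was -0.13 and Isg15 -0.11. With runs left out Isg15 ranged from -0.49 to 3.12 and S100a4 from -0.092 to 4.97. In thinned cells Ctss was -0.0068. The cause was not tested. The selection changed with depth, as the mean share of 0.980% was 0.25% in cells thinned to 2000 UMIs. Of the 195 selected cells, 159 carried only 3 of the 5 genes, the fewest the rule allows.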
